A study of Mus musculus with 12 samples.

Results

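Gene expression was described in wild-type KSL cells kept for 24 h in cytokines without TNF, from the 3 arrays with that label among the 12 of the series. KSL cells are bone marrow cells sorted for c-Kit and Sca-1 on their surface and for the absence of mature lineage antigens, and the labels call them haematopoietic progenitors. They came from wild-type mice aged 2 to 4 months and were cultured in RPMI with 10% fetal bovine serum, IL-6 at 20 ng/ml, IL-11 at 10 ng/ml, Flt3 ligand at 50 ng/ml and stem cell factor (SCF) at 10 ng/ml. The cells were placed in culture freshly isolated, so each array reports sorted cells after 24 h of growth factor stimulation and not cells as they were in the marrow. The other 9 arrays hold cells deficient in Fancc, a Fanconi anaemia gene, or cells treated with TNF, and were not used here. Each array took 5 to 15 ng of total RNA, amplified before labelling. Whether the 3 replicates are separate mice is not stated in the labels, and the number of arrays limits the precision. No comparison of groups was made, and the values below are levels and counts with no test.

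The KSL fraction holds haematopoietic stem cells and the multipotent progenitors that arise from them. SCF and Flt3 ligand act through receptor tyrosine kinases, while IL-6 and IL-11 act through receptors that share the gp130 chain and signal through JAK kinases and STAT factors. In such cytokines progenitors leave quiescence, divide and begin to differentiate, and the neutrophil, monocyte, mast cell, erythroid, megakaryocyte and lymphoid lineages can each be followed by genes used in few other cells.

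Levels are the authors' log2 values, and where 3 values follow a gene they are replicates 1, 2 and 3 in that order. Each of 18193 genes was represented by its brightest probe set that names that gene alone, and 9010 genes had several such probe sets. A gene was called bright when its mean log2 level was in the top 10% of genes, at 11.83 or above. It was called near the floor when its mean was at or below 4.89, the 95th percentile of 72 olfactory, vomeronasal and trace amine receptor genes. These were taken as genes of little use in blood cells, which was not tested. By construction 10% of genes (1820) were bright. Near the floor were 29.9% of genes (5447), and 10926 lay between. The 72 sensory receptor genes had a median log2 level of 3.52 and ran from 2.51 to 7.06. A probe set's brightness depends on its probes as well as on the transcript, so genes are placed in these broad classes and the order of neighbouring genes is not read. Elane and Idh3a lay just inside the bright class with mean log2 levels of 11.84 and 11.83, and Lyl1 just outside it. How far probes matter could be seen within genes: of 1355 bright genes with several probe sets, 226 (16.7%) had another probe set near the floor.

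**Figure D1:**
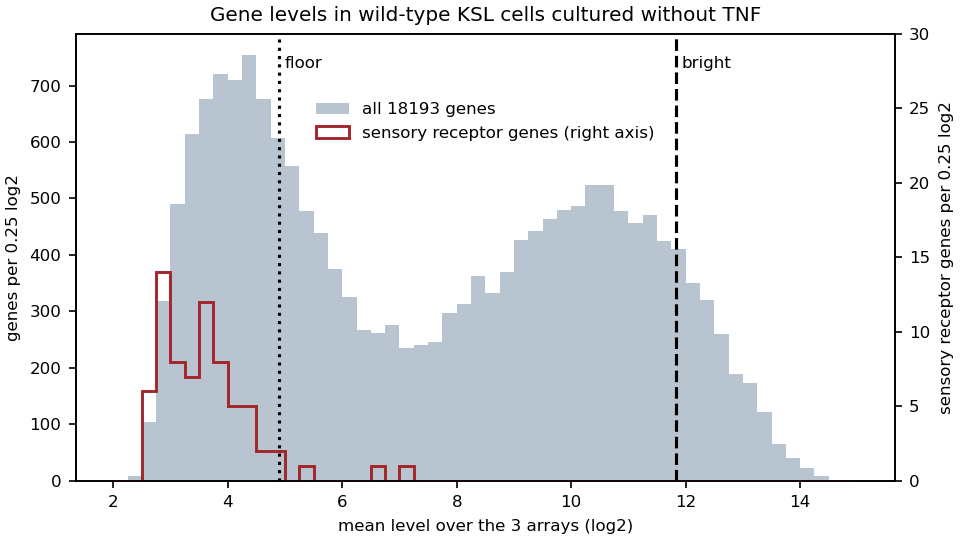
Number of genes (left axis, grey) and of sensory receptor genes (right axis, red outline) per 0.25 step of mean log2 level over the 3 arrays. The genes form a broad low peak around the floor line at 4.89 and a broad high one below the bright line at 11.83, and most of the 72 receptor genes lie left of the floor line.

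The 3 arrays gave close values for most genes. The median SD was 0.16 on the log2 scale over all genes, 0.09 over bright genes, 0.18 over genes between the classes and 0.14 near the floor. Across genes, which are not independent replicates, Pearson's r was 0.9966 between replicates 2 and 3, 0.9927 between 1 and 2 and 0.9928 between 1 and 3. Replicate 1 therefore stood somewhat apart, and it did so in part by lineage genes, as given below. Replicate 3 differed in sex-linked transcripts. Xist, the RNA made from the inactive X chromosome in female cells, read 5.47, 5.06 and 12.53. Eif2s3y, which lies on the Y chromosome, read 11.66, 11.79 and 10.46, and Kdm5d, also Y-linked, read 9.55, 8.91 and 7.56. Signal from both kinds of transcript was thus present on replicate 3, and the labels give no sex. Leaving out any of the 3 arrays moved none of the 64 counts of bright and near-floor genes over the lists by more than 1.5 times.

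Of the surface antigens used in the sort, Kit was measured, and it was at an intermediate level. Cd34 and Flt3, which mark subsets of KSL cells but were not part of the sort, were higher. Cd34, a surface sialomucin of progenitors, was bright with 13.13, 12.95 and 12.97 (mean 13.02, SD 0.10). Flt3, the receptor of Flt3 ligand and a mark of multipotent progenitors that have lost long-term self-renewal, read 11.83, 11.70 and 11.60, a mean of 11.71 just under the bright threshold. Kit, the SCF receptor, read 10.77, 10.43 and 10.44 (mean 10.55, SD 0.19), and its other probe set had a mean of 7.42. Both Kit and Flt3 lay well above the floor on all 3 arrays. Ly6a, which encodes Sca-1, is not named by the probe annotation used here and was not analysed. So 1 of these 3 measured markers was bright, and 2 of 3 were when the probe sets of each gene were averaged. Here and below, averaging also meant that the bright and floor thresholds were set again on the averaged values. A gene could therefore turn bright under it without a higher level, as Flt3 could with its 1 probe set. The sort itself could not be checked here, because it used surface protein on fresh cells and the arrays read mRNA after 24 h of culture.

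Genes of the most primitive, long-term repopulating stem cells were lower and more variable. Of 13 measured stem cell surface genes, 2 (15.4%) were bright and 1 (7.69%) near the floor, beside 10% and 29.9% of all genes. The median log2 level was 8.49, at the 56.8th percentile of genes. The bright members were Cd48, at 12.06, 12.64 and 12.50, and Alcam, an adhesion molecule, at 12.28, 12.20 and 12.04. Cd48 is the member that long-term stem cells lack and that is gained as progenitors differentiate. Slamf1 (CD150), the SLAM receptor kept by long-term stem cells, was near the floor at 3.84, 3.51 and 4.51, and its other 2 probe sets had means of 3.76 and 3.30. Procr, the protein C receptor, read 8.14, 7.50 and 7.03. Tek, the angiopoietin receptor Tie2, read 8.31, 6.86 and 7.70. Esam, an endothelial-type adhesion molecule, read 7.06, 6.25 and 6.51, and Vwf, von Willebrand factor, 7.11, 6.06 and 6.44. Procr, Tek, Esam and Vwf had their highest value on replicate 1, and Cd48 its lowest. Of the 13 genes, 4 were at least 2-fold apart between arrays, against 3.87% of all genes (704). In bulk samples, fewer cells of a type and less RNA per cell cannot be told apart.

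Of 39 measured genes on a list of stem cell and lineage regulators, 5 (12.8%) were bright, beside 10% of all genes. None was near the floor, beside 29.9%, and the median log2 level was 9.69. With probe sets averaged, 10 were bright and 2 near the floor. Brightest was Myb, a transcription factor needed for definitive blood formation, at 13.49, 13.48 and 13.43. Lmo2, the bridging partner of Tal1 and the GATA factors, read 13.32, 13.17 and 13.17. Etv6, an ETS-family repressor, had a mean of 13.14, and Myc, which drives growth and division, read 12.84, 12.95 and 13.03. Ikzf1 (Ikaros), a lymphoid and progenitor regulator, also passed the threshold with a mean of 12.31. Factors that work in many progenitors lay in the upper middle range, among them Gata2 at 11.34, Runx1 at 11.34, Hoxa9 at 11.45, Cebpa at 11.64 and Spi1 (PU.1) at 10.92. Between arrays the list went both ways, with 20 of 39 genes above both others on replicate 1 and 16 below both. Among members tied to long-term stem cells, Mecom read 11.03, 10.59 and 10.49, Hlf 10.02, 9.55 and 9.42, and Meis1 8.95, 8.04 and 8.08. Fgd5, an exchange factor used as a stem cell reporter, read 7.28, 5.43 and 5.69. The low end of the list held both lineage factors of other branches and stem cell genes. Ebf1 and Pax5, which commit cells to the B lineage, had means of 5.11 and 5.24, and Hoxb5, a stem cell mark, 5.61. Gata1 and Klf1, the erythroid factors, were at 6.66 and 6.07.

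**Figure D2:**
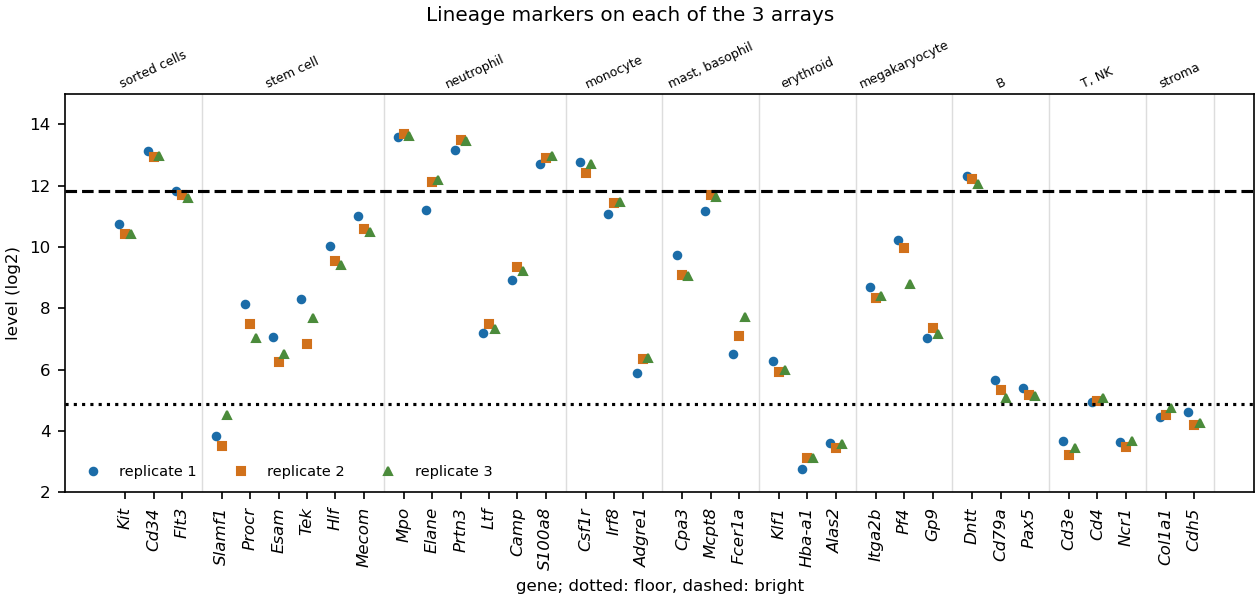
Log2 level of lineage markers on each of the 3 arrays, with the bright line at 11.83 (dashed) and the floor line at 4.89 (dotted). Cd34, Mpo, Prtn3, S100a8, Csf1r and Dntt lie above the bright line on every array, while Slamf1, Hba-a1, Alas2, Cd3e and Ncr1 lie below the floor line on every array.

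Receptors for the added factors were all well above the floor and none was bright, or 1 with probe sets averaged. Il6st, the gp130 chain shared by IL-6 and IL-11, read 10.65, 10.84 and 10.86. Il6ra, the IL-6 binding chain, read 9.88, 10.04 and 10.06. These join Kit and Flt3 above, for a median of 10.67 over the 4 measured genes, and the IL-11 binding chain was not analysed here. Among 30 other growth factor and cytokine receptors, 6 (20%) were bright and 4 (13.3%) near the floor, beside 10% and 29.9% of all genes. Bright were Tfrc, the transferrin receptor that imports iron, at 13.18, 13.36 and 13.23, and Cxcr4, the receptor of the marrow-homing chemokine Cxcl12, at 12.77, 12.87 and 12.85. Csf1r, the macrophage colony-stimulating factor receptor, read 12.78, 12.40 and 12.72, and Csf2rb, the common beta chain of the IL-3, IL-5 and GM-CSF receptors, 12.26, 12.69 and 12.53. The other 2 bright members were Il1r1, at 12.32, and Csf2rb2, at 11.97. The 4 members near the floor were receptor chains for IL-9, IL-5, IL-2 and erythropoietin. Il9r had a mean of 2.89, Il5ra of 3.42, Il2ra of 3.98 and Epor of 4.48. Other ligand-specific chains lay between the classes, with Csf2ra at 9.84, Il7r at 9.72, Csf3r at 9.53 and Il3ra at 8.28. The receptors of TNF, which was not added here, were in the middle range, Tnfrsf1a at 10.48, 10.94 and 10.96 and Tnfrsf1b at 10.38, 10.03 and 9.89.

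Few cytokines and ligands were expressed at more than low levels. Of 25 measured, none was bright and 10 (40%) were near the floor, beside 10% and 29.9% of all genes. The median log2 level was 5.29. The highest was Tgfb1, a growth inhibitor of stem cells, at 11.02, 11.26 and 11.19. Ccl3, a chemokine also called MIP-1 alpha, followed at 10.07, 10.23 and 10.06. Tnf itself read 9.06, 8.50 and 8.36, with the highest value on replicate 1. Among the added factors, Kitl (SCF), Il6 and Il11 had low transcript levels, at 5.18, 5.29 and 3.99, and that of Flt3 ligand is not given here. The 3 lowest were Il3 at 2.93, Il1a at 3.04 and Ifnb1 at 3.15, and Csf2 (GM-CSF) and Csf3 (G-CSF) were at 3.98 and 3.88.

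Downstream of these receptors, none of 23 measured JAK-STAT and feedback genes was near the floor and 4 (17.4%) were bright. Over all genes these shares were 29.9% and 10%. Pim1, a survival kinase induced by STAT5 and STAT3, read 13.26, 13.21 and 13.21. Mcl1, an antiapoptotic protein needed by stem cells, read 12.79, 12.61 and 12.52. Ptpn11 (Shp2), a phosphatase that relays Kit and gp130 signals, had a mean of 12.14 and Bcl2 one of 11.87. With probe sets averaged, 1 of the 23 was bright and 1 near the floor, so the bright count rested on how a gene was represented. The kinases and factors lay between the classes, Jak1 at 11.63, Jak2 at 10.77, Stat5a at 11.71 and Stat3 at 10.56. Of the feedback inhibitors, Socs3 read 10.32, 9.78 and 9.95, Socs2 had a mean of 7.96, Cish of 7.80 and Socs1 of 5.03. Cbl, a ubiquitin ligase that turns off Kit, was the member whose arrays differed at least 2-fold, at 9.64, 11.37 and 11.37.

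Among the lineage lists, that of the early neutrophil program stood highest, though list members were chosen with earlier results of these data known. Of 13 measured genes of the promyelocyte stage and primary granule, 11 (84.6%) were bright and none was near the floor, with a median log2 level of 12.75. Ctsg, the granule protease cathepsin G, read 13.55, 13.83 and 13.77. Mpo, myeloperoxidase, read 13.59, 13.69 and 13.64. Prtn3, proteinase 3, read 13.17, 13.49 and 13.45. Elane, neutrophil elastase, was just over the threshold on average but wider, at 11.20, 12.12 and 12.20. Calr, Plac8 and Ms4a3, which belong to this list without being granule enzymes, had means of 13.36, 13.34 and 13.09. The lowest members were Nkg7 at 11.59 and Ctsc, the protease that activates the granule serine proteases, at 11.74.

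Genes of later neutrophil maturation were mostly lower. Of 13 measured, 2 were bright, none was near the floor and the median was 9.16. The bright members were S100a8 and S100a9, which form the calcium-binding calprotectin, at 12.72, 12.90 and 12.97 and at 12.63, 13.08 and 12.86. Lcn2, an iron-scavenging lipocalin, had a mean of 10.79, and Camp, the cathelicidin of secondary granules, 9.16. Ltf, lactoferrin of the same granules, was at 7.33. Mmp8, a collagenase, differed at least 2-fold at 9.27, 10.64 and 10.83. The lowest were Itgam (CD11b), a surface integrin of mature myeloid cells and one of the antigens lineage cocktails commonly hold, at 4.87, 5.18 and 5.15, then Mmp9 at 5.30 and Fcnb at 6.12. Itgam and Mmp9 stood above the floor threshold, but both were near the floor when it was set from genes of other tissues instead, a choice made after the data were seen.

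In the monocyte, macrophage and dendritic list, 3 of 19 genes (15.8%) were bright and 2 (10.5%) near the floor, with a median of 8.46. Over all genes these shares were 10% and 29.9%. Emb (embigin), a surface glycoprotein used to mark myeloid progenitors, read 12.94, 12.89 and 12.77. Csf1r, given above, and Ccr2, the receptor that draws monocytes from marrow, at 12.47, 12.63 and 12.51, were the other 2. Irf8, the factor that directs monocyte and dendritic fate, read 11.10, 11.45 and 11.46. Genes of mature cells were spread widely. Cd68, a lysosomal protein, was at 10.77, Itgax (CD11c) at 8.90 and Mrc1, the mannose receptor, at 8.15, while Adgre1 (F4/80) read 5.89, 6.35 and 6.39 and Cd14 5.83, 6.77 and 6.90. Near the floor were Cd209a at 3.39 and Xcr1 at 3.51, both dendritic cell receptors, and Ms4a7, a macrophage gene, was next at 5.34. In this list 5 of the 19 genes were at least 2-fold apart between arrays, against 3.87% of all genes.

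Mast cell, basophil and eosinophil genes were spread over the whole range, with a median of 8.28. Of 15 measured, 1 (6.67%) was bright and 2 (13.3%) near the floor, beside 10% and 29.9% of all genes. Fcer1g, the signalling chain of several Fc receptors, was bright at 11.89, 11.85 and 12.00. Mcpt8, a basophil protease, read 11.17, 11.70 and 11.63. Prg2, the eosinophil major basic protein, read 9.03, 10.32 and 10.20, and Cpa3, the mast cell carboxypeptidase, 9.73, 9.09 and 9.07. Genes of mature mast cells and eosinophils were at the bottom, Ccr3 at 3.40, Tpsab1 at 3.52 and Il4 at 5.05. With probe sets averaged, 3 of the 15 were bright.

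Erythroid genes were mostly low. Of 16 measured, 7 (43.8%) were near the floor and 2 were bright, with a median of 5.29. The bright members were Tfrc, above, and Car2, a carbonic anhydrase, at 12.38, 12.36 and 12.31. The 7 near the floor included a globin and a haem synthesis gene. Hba-a1, alpha globin, read 2.78, 3.12 and 3.14. Alas2, the erythroid enzyme that starts haem synthesis, read 3.63, 3.44 and 3.58, and Rhag, an ammonium channel of the red cell membrane, 2.91, 2.76 and 2.79. These 3 genes stayed below the floor threshold on every array.

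Megakaryocyte genes reached intermediate levels, with a median of 7.03. None of 14 was bright and 3 (21.4%) were near the floor, beside 10% and 29.9% of all genes. Cd9, a tetraspanin, read 9.80, 10.59 and 10.54, and Itgb3, the beta3 integrin, 10.40, 10.19 and 9.91. Pf4, platelet factor 4, read 10.22, 9.97 and 8.81, more than 2-fold apart. Itga2b (CD41), the partner of Itgb3 and also a mark of some stem cells, read 8.71, 8.34 and 8.41. The dimmest were Gp6, a collagen receptor of platelets, at 3.59, Tubb1, the platelet tubulin, at 4.09 and Clec1b at 4.71.

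The B lineage list had a median of 5.94, below the 7.46 of all genes, with early-lymphoid exceptions. Of its 16 genes 2 (12.5%) were bright and 2 (12.5%) near the floor, beside 10% and 29.9% of all genes. Dntt, the terminal transferase of early lymphoid progenitors, read 12.30, 12.21 and 12.07, and its other 2 probe sets had means of 12.10 and 10.98. Ighm, the mu heavy chain, read 12.15, 11.80 and 11.87 on its brightest probe set, but of its 11 probe sets 9 had means between 3.10 and 5.40. Il7r, the IL-7 receptor, read 10.14, 9.66 and 9.35, and Cd79b, a signalling chain of the B cell receptor, had a mean of 9.91. Vpreb1, part of the surrogate light chain, read 6.62, 7.86 and 8.35. Genes of committed and mature B cells were low, Fcer2a at 4.13, Ms4a1 (CD20) at 4.16 and Cd22 at 4.94. With probe sets averaged 1 of the 16 was bright and 5 were near the floor, and 8 were with the floor set from genes of other tissues.

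Of 21 T and NK lineage genes none was bright and 9 (42.9%) were near the floor. Nkg7, a cytotoxic granule membrane protein that also belongs to the promyelocyte list, was the highest at 11.65, 11.59 and 11.52. Prf1, perforin, read 8.78, 9.17 and 9.38. Cd3e, Ncr1 and Cd8b1, receptors of mature T and NK cells, were the lowest, and Cd3e read 3.69, 3.23 and 3.44. The other CD3 chains, Cd3g and Cd3d, had means of 3.64 and 3.93. With probe sets averaged, 1 of the 21 was bright.

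Cells outside blood were checked in the same way. Of 19 stroma and endothelium genes none was bright and 9 (47.4%) were near the floor, beside 10% and 29.9% of all genes. Col1a2, Pdgfra and Col3a1, genes of fibroblast-like stroma, had means of 4.01, 4.01 and 4.03. The highest was Angpt1, angiopoietin 1, which stem cells also make, at 10.85, 10.21 and 10.24. Of 21 genes specific to liver, pancreas, skin, muscle, brain, lung, kidney, gut and testis, 9 (42.9%) were near the floor. None was bright, 17 were at or under 6, and the median was 5.06. The near-floor count was 14 with probe sets averaged. Alb, albumin, read 4.84, 4.82 and 4.62, and the 3 lowest were Umod at 3.32, Snap25 at 3.51 and Fabp2 at 3.70. Over 6 were 4 of the 21, and the highest was Mbp, known for myelin, at 11.14, 10.72 and 10.90. Cela1 of pancreas and Prm1 of testis also had means above 7.46, the median of all genes. The other 7 probe sets of Mbp had means between 4.31 and 5.58. The Mbp locus is known to make longer transcripts in blood cells as well.

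**Figure D3:**
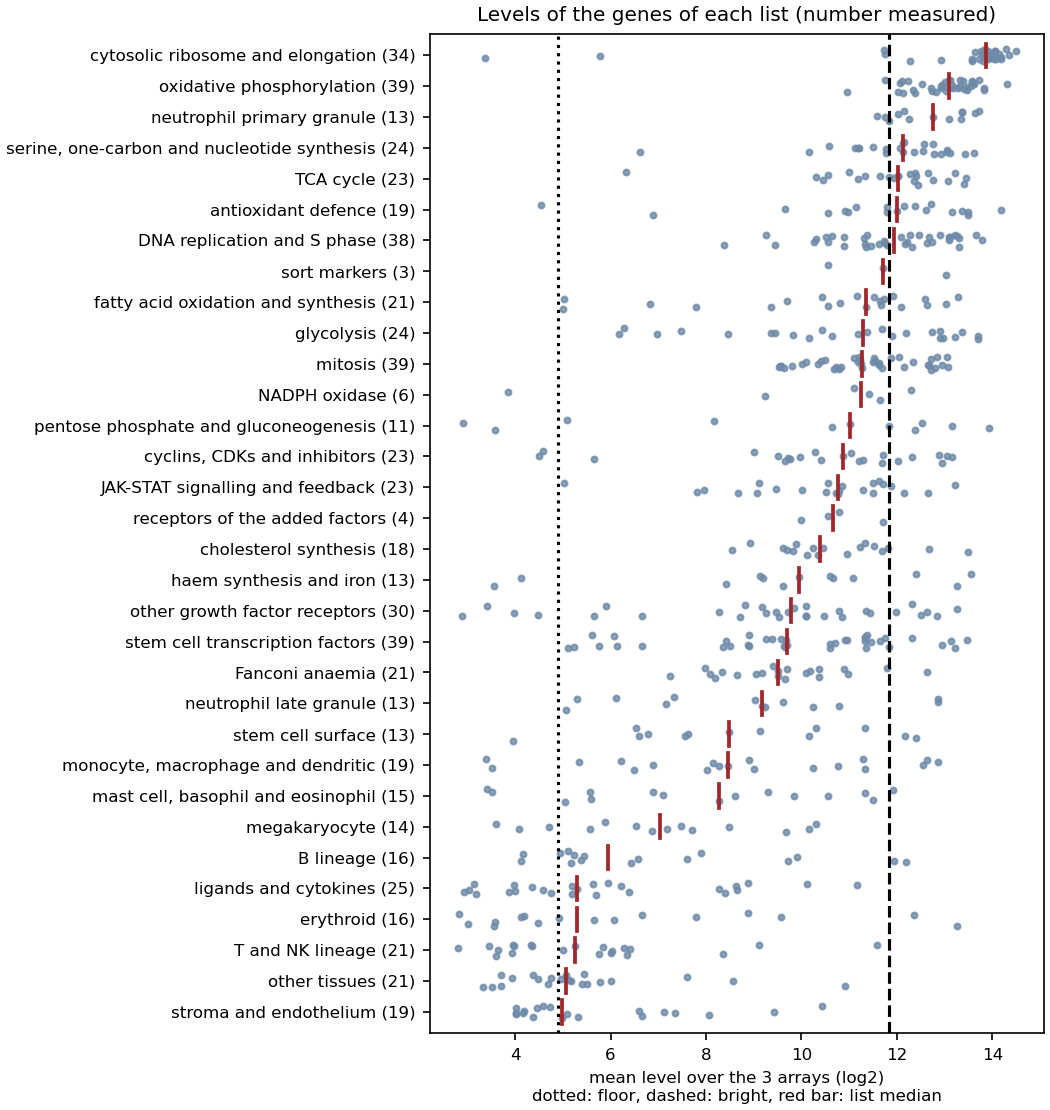
Mean log2 level over the 3 arrays of every measured gene of the 32 lists (points), with the list median (red bar), the floor line at 4.89 and the bright line at 11.83. Ribosome, respiratory chain and primary granule genes crowd to the right of the bright line, and stroma, other tissues, T and NK, and erythroid lists have medians near the floor line.

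Over the 32 lists, 24 had a larger bright share than the 10% of all genes. Some of the 24 were close to it, such as cholesterol synthesis at 11.1% and the erythroid and B lineage lists at 12.5%. The lists and their members were chosen with earlier results of these data known, so these counts are not independent of the values. A larger near-floor share than 29.9% was seen in 5 lists. The 5 were the ligands, the erythroid, the T and NK, the stroma and the other tissue lists.

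Genes of the cell cycle were high throughout. Of 38 measured genes of DNA replication and S phase, 19 (50%) were bright and none was near the floor, with a median of 11.94. Pcna, the sliding clamp of DNA polymerases, read 13.82, 13.75 and 13.75. Fen1, which trims Okazaki fragments, read 13.76, 13.57 and 13.65, and Mcm7, a subunit of the replicative helicase, 13.31, 13.27 and 13.33. Rrm2, the regulated subunit of ribonucleotide reductase, had a mean of 13.30. All 6 subunits of the helicase, Mcm2 to Mcm7, were bright, with means from 12.16 to 13.31. The lowest members were Tyms, thymidylate synthase, at 8.38, E2f1 at 9.26 and Orc1, of the origin recognition complex, at 9.45. None of the 38 was 2-fold apart between arrays.

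Of 39 mitotic genes, 13 (33.3%) were bright and none was near the floor, beside 10% and 29.9% of all genes. The median was 11.28. Cks2, a partner of mitotic CDKs, read 12.99, 13.12 and 13.12. Birc5, survivin, read 12.91, 13.12 and 13.10. Cdca8, borealin, works with survivin at the centromere and read 13.12, 12.84 and 12.87. Cdk1, the kinase that starts mitosis, read 12.88, 12.83 and 12.84, and Mki67, the antigen used to score cycling cells, 12.40, 12.76 and 12.79. Even the lowest members, Dlgap5, Kif4 and Anln, had means of 9.52, 9.56 and 9.57. Every measured member thus lay far above the floor on each array.

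Promoters of the mitotic genes often held CCAAT boxes. The window searched was the RefSeq promoter of build GRCm38.p6, 250 bases before to 50 after the annotated start, and 14367 of the genes (79%) had one. CCAAT, or ATTGG on the other strand, was in 78.8% of 33 windows of mitotic genes, in 38.2% of windows of all genes on the arrays and in 37.9% of all windows in the RefSeq table. Other lists also held it above the share of all genes, in 93.3% of cholesterol synthesis, 68.4% of Fanconi anaemia, 66.7% of erythroid, 63.6% of S phase and 61.9% of TCA cycle windows. The 120 bases before the start are shown for the 4 brightest mitotic genes with a match there, 5′ to 3′ on the gene's strand, with CCAAT and ATTGG in capitals, because each holds the motif more than once. Top2a encodes the topoisomerase that untangles chromosomes, and its log2 level was 12.73, 12.85 and 12.83.
Cks2, chr13:51645112-51645231, strand +: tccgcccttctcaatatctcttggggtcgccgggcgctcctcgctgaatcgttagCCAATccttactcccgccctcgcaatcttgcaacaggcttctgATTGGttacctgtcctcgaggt
Cdca8, chr4:124936918-124937037, strand -: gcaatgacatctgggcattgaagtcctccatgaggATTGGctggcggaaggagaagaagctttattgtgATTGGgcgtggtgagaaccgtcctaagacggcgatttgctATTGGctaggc
Cdk1, chr10:69352913-69353032, strand -: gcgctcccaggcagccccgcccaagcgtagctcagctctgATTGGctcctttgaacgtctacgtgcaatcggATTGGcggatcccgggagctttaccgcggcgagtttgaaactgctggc
Top2a, chr11:99024190-99024309, strand -: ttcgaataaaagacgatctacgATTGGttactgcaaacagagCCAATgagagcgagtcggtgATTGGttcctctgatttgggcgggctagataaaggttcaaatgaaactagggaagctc
A match is a description of the sequence, not of binding.

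The list of cyclins, cyclin-dependent kinases, their inhibitors and related regulators ranged from bright to near the floor. Of 23 measured, 6 were bright and 2 near the floor, with a median of 10.86. Cdk4 read 13.09, 13.18 and 13.20, Cdk6 12.98, 13.17 and 13.01, and their partner Ccnd2 12.87, 12.98 and 12.83. With Myc, given above, and E2f3 and Ccnd1, at 12.31 and 12.03, these were the bright members. The inhibitors Cdkn2a, with transcripts for p16 and p19Arf, and Cdkn2b, for p15, were near the floor on all 3 arrays, at means of 4.58 and 4.51. Cdkn1c (p57), which holds stem cells in quiescence, was low and highest on replicate 1, at 6.25, 5.25 and 5.44. Cdkn1a (p21) and Cdkn1b (p27) lay in the upper middle range at 11.30 and 11.04.

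The brightest genes of all were those of protein synthesis. Of the 25 genes with the highest mean, 15 encode ribosomal proteins, as do 28 of the top 50. At the head of the ranking were Sephs2, a selenophosphate synthetase, at 14.52, 14.51 and 14.53, and the ribosomal protein genes Rplp2 at 14.49, Rpl41 at 14.48, Rpl35 at 14.35 and Rps29 at 14.34. Ribosomal protein genes also ranked there were Rpsa, Rps28, Rpl13a, Rps3a1, Rps3, Rpl7a, Rps18, Rpl27a, Rpl6, Rpl10a and Rpl4. The remaining genes of the top 25 had varied roles. Cox5b, at 14.30, is a subunit of cytochrome oxidase, Sod1, at 14.18, the cytosolic superoxide dismutase, and Eef1a1, at 14.17, the elongation factor that delivers tRNA. Ywhae is a 14-3-3 protein, Lgals1 galectin 1, Pebp1 a Raf inhibitor, Stmn1 and Cfl1 regulators of microtubules and actin, and Ran the GTPase of nuclear transport. These 25 genes differed little between arrays, and all had means of at least 14.06.

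Of 34 measured genes of the cytosolic ribosome and elongation, 30 (88.2%) were bright, beside 10% of all genes. The list had a median of 13.87 and a median SD of 0.04. Rps16 was the member near the floor, at 3.36, 3.40 and 3.36, and Rpl37 was also low, at 5.93, 5.69 and 5.69. Rps25, at 11.72, and Rpl14, at 11.75, were just under the bright threshold. Each had 1 probe set that names it alone, and the part of the probes in these 2 values was not tested. Of the list's genes, 34 of 56 had a probe set that names them alone, and the rest were not analysed.

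Ribosomal protein mRNAs are known for a 5′ terminal oligopyrimidine tract, a C followed by a run of C and T at the start of the transcript, through which growth signals control their translation. At the annotated start base, a C followed by at least 4 pyrimidines was found in 23.3% of 30 windows of this list. It was there in 2.37% of windows of genes on the arrays and 2.49% of all windows. Sought anywhere from 5 bases before the start to 10 after, it was in 40%, 19.9% and 18.5%, a smaller contrast. The 4 brightest list genes with it at the start base are shown from 30 bases before the start to 20 after. The tract is in capitals, because it varies in length and base order.
Rplp2, chr7:141447621-141447670, strand +: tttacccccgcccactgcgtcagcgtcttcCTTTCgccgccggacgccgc
Rpl35, chr2:39005112-39005161, strand -: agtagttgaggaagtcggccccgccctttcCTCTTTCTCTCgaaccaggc
Rps18, chr17:33955646-33955695, strand -: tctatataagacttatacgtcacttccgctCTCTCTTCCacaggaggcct
Rpl38, chr11:114668550-114668599, strand +: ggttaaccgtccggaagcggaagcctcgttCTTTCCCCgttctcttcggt
The ETS core CCGGAAG, or CTTCCGG, was in 43.3% of the list's windows and 13.8% of windows of genes on the arrays. It can be seen, in lower case, in the Rpl38 stretch.

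Energy metabolism was represented most strongly by the respiratory chain. Of 39 measured genes of oxidative phosphorylation, 37 (94.9%) were bright and none was near the floor, beside 10% and 29.9% of all genes. The median was 13.09. Cox5b read 14.36, 14.25 and 14.31, and Cox6b1, another cytochrome oxidase subunit, had a mean of 13.83. Cox7a2, of the same enzyme, and Atp5g3, of the ATP synthase ring, were at 13.82 and 13.73. The 2 members not called bright were Ndufs1, of complex I, at 11.76 and Uqcrc1, of complex III, at 10.95, and Ndufa9, of complex I, was the next lowest at 12.02. Of 23 genes of the TCA cycle and its entry, 15 (65.2%) were bright. Cs, citrate synthase, read 13.52, 13.39 and 13.41, Idh3g 13.55, 13.33 and 13.34, and the malate dehydrogenases Mdh2 and Mdh1 had means of 13.23 and 13.08. Pcx, which replenishes oxaloacetate from pyruvate, was the low member at 6.64, 6.19 and 6.13. The next lowest, Dld and Dlat of the pyruvate dehydrogenase complex, had means of 10.31 and 10.45.

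Of 24 glycolysis genes, 10 (41.7%) were bright and none was near the floor, beside 10% and 29.9% of all genes. The median was 11.28. Aldoa (aldolase) read 13.69, 13.68 and 13.71, Ldha (lactate dehydrogenase) 13.72, 13.69 and 13.67, and Pgk1 and Pkm had means of 13.36 and 13.22. The glucose transporter Slc2a1 (Glut1) and the lactate transporter Slc16a1 were also bright, at 12.90 and 12.96. Isozymes best known from other tissues ranged from Eno2 of neurons at 6.18 and Pklr of liver and red cells at 6.28 to the muscle forms Eno3 at 8.46 and Pfkm at 9.44. Slc16a3, another lactate transporter, was at 6.97. Ldhb, the partner of Ldha, was at least 2-fold apart at 10.81, 9.01 and 9.65. In the pentose phosphate and gluconeogenesis list, 5 of 11 (45.5%) were bright and 2 (18.2%) near the floor. Tkt (transketolase) read 13.86, 13.99 and 13.94 and Pgd 13.19, 13.10 and 13.15, both of the pentose phosphate pathway. Rpia and Taldo1, of the same pathway, were also bright at 12.52 and 12.38, and Pgls and Rpe lay between the classes at 11.03 and 10.64. The fifth bright member was Pck2, the mitochondrial form of a gluconeogenic enzyme, at 11.84. The near-floor members, Pck1 at 3.58 and G6pc at 2.90, are enzymes of gluconeogenesis in liver and kidney, and Fbp2, a muscle isozyme of the same pathway, was at 5.10.

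Of 24 genes that make serine, one-carbon units, nucleotides and polyamines, 15 (62.5%) were bright and none was near the floor. Psat1 and Phgdh, of serine synthesis, had means of 13.61 and 13.42. Ppat, which commits cells to purine synthesis, had a mean of 13.11 and Srm, spermidine synthase, 13.06. Aldh1l2, a mitochondrial folate enzyme, was low at 6.96, 6.09 and 6.79. Dhodh, of pyrimidine synthesis, and Impdh1, of guanine nucleotide synthesis, followed at 10.15 and 10.59. Lipid genes were more mixed. Of 18 cholesterol synthesis genes 2 (11.1%) were bright, beside 10% of all genes, and none was near the floor, beside 29.9%. The bright ones were Hmgcs1 at 13.40, 13.52 and 13.54 and Insig1 at 12.71, 12.67 and 12.65, and the list median was 10.40. The bright count was 5 with probe sets averaged. The lowest were Mvk and Mvd, of the mevalonate steps, at 8.55 and 8.93 and Hsd17b7 at 9.60. Of 21 genes of fatty acid oxidation and synthesis 6 (28.6%) were bright, led by Acly, which makes cytosolic acetyl-CoA, at 13.27 and Hadh, of mitochondrial oxidation, at 13.03. Scd2, a desaturase, and Etfb, which passes electrons from oxidation to the respiratory chain, were at 12.62 and 12.59, while the related Scd1 was at 6.83. Ppara and Pparg, nuclear receptors of liver and fat, had means of 5.01 and 5.03.

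Of 19 antioxidant genes, 10 (52.6%) were bright and 1 near the floor. Sod1 read 14.15, 14.20 and 14.20, and Txn1 (thioredoxin), Gpx1 (glutathione peroxidase) and Txnrd1 had means of 13.49, 13.48 and 13.36. The near-floor member was Sod3, the secreted superoxide dismutase, at 4.54. Gpx3, the plasma glutathione peroxidase, and Nqo1, a quinone reductase, were at 6.89 and 9.65. Of 6 measured genes of the phagocyte NADPH oxidase family 1 was bright, Rac2 at 12.20, 12.36 and 12.32, and 3 were with probe sets averaged. Cybb, the catalytic subunit gp91phox, read 8.49, 9.56 and 9.64, more than 2-fold apart, and Nox4, a relative used outside blood, was near the floor at 3.85. Ncf4, the p40phox regulatory subunit, had a mean of 11.10. All 6 had their lowest value on replicate 1.

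The Fanconi anaemia genes, whose products repair DNA interstrand crosslinks and which this series is about, were at intermediate levels. Of 21 measured, 1 (4.76%) was bright, or 2 with probe sets averaged, beside 10% of all genes. None was near the floor, beside 29.9%, and the median was 9.52. Usp1, the enzyme that removes ubiquitin from Fancd2, read 12.70, 12.65 and 12.53. Fancc, the gene the other strain of the series is deficient in, read 8.28, 8.22 and 8.49 here, and its other 2 probe sets had means of 6.25 and 5.98. The lowest were Rad51c at 7.25, Fance at 7.99 and Faap100 at 8.09. Of 13 haem and iron genes 3 (23.1%) were bright, Fth1 (ferritin heavy chain) at 13.55, Tfrc, given above, and Urod, of haem synthesis, at 12.39. Alas1, the form of the starting enzyme used in all tissues, read 10.69, 10.61 and 10.70, beside Alas2 near the floor, and Hamp (hepcidin), the liver's iron hormone, was near the floor at 4.12. Slc11a2, an iron transporter, was at 8.42.

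Bright genes tended to have CpG-rich promoters. The median number of CpG dinucleotides in the 300-base window was 23 over bright genes (quartiles 16 and 30), 6 over genes near the floor (quartiles 3 and 15), 17 over genes on the arrays and 7 over all windows. Ranked in steps of 10% of genes from the dimmest, the medians were 4, 6, 8, 10.5, 16, 19, 22, 22, 24 and 23. The GC box GGGCGG, or CCGCCC, itself holds a CpG and was in 66.6% of bright and 32.6% of near-floor windows. CCGGAAG or CTTCCGG, which also hold a CpG, were in 24% and 4.18%. TATAAA, or TTTATA, ran the other way, in 7.48% of bright and 16.5% of near-floor windows, while CCAAT or ATTGG were in 40.2% and 37.6%. The primary granule list, mostly bright, did not follow this, and its 12 windows had a median of 5 CpG.

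The contrast is shown in the 120 bases before the start of 6 genes, with each CpG in capitals. Myb and Cs were bright with CpG-rich promoters, Mpo and Ctsg bright with CpG-poor ones, and Hba-a1 and Alb near the floor with CpG-poor ones.
Myb, chr10:21160985-21161104, strand -: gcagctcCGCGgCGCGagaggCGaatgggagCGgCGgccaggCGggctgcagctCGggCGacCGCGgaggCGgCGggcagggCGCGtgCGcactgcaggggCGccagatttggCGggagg
Cs, chr10:128337607-128337726, strand +: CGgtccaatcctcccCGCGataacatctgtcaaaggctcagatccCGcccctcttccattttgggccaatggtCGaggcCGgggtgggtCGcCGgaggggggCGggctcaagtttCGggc
Mpo, chr11:87793664-87793783, strand +: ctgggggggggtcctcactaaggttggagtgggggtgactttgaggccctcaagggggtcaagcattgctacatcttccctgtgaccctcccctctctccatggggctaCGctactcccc
Ctsg, chr14:56102575-56102694, strand -: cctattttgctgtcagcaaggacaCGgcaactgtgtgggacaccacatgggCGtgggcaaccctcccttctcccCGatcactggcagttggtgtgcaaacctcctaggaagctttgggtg
Hba-a1, chr11:32283552-32283671, strand +: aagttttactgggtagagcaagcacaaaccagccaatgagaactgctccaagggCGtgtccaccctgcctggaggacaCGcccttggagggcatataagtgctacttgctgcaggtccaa
Alb, chr5:90460750-90460869, strand +: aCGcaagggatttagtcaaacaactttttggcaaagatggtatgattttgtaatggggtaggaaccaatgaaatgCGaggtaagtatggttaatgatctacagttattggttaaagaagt
The Myb stretch holds 19 CpG and the Cs stretch 10. Mpo has 1, Ctsg 3, and Hba-a1 and Alb 2 each, so level class and CpG count did not go together in the granule genes shown.

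**Figure D4:**
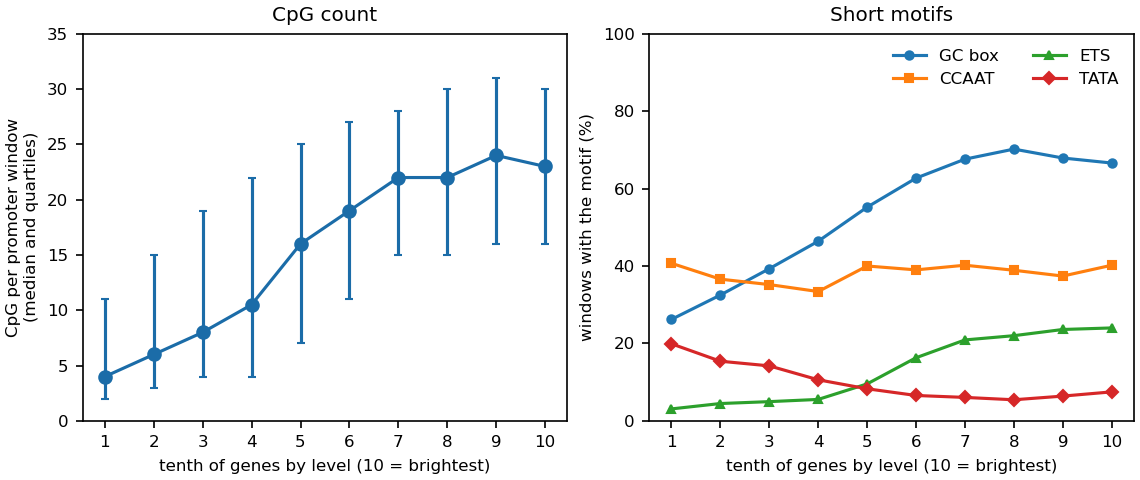
Left, CpG count per 300-base promoter window (median with quartile bars) against level in steps of 10% of genes, from the dimmest (1) to the brightest (10). Right, percent of windows with each motif: GC box shares climb to 70.2% in step 8 and are 66.6% in step 10, TATA shares drop to 5.44% in step 8 and are 7.48% in step 10, ETS shares are highest in step 10, and CCAAT stays between 33.4% and 40.7%.

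The spread between the arrays had a pattern of its own. Of the 704 genes at least 2-fold apart (3.87%), replicate 1 was the array that stood alone in 480, being the highest in 347 and the lowest in 133, against 98 for replicate 2 and 126 for replicate 3. Between replicates 2 and 3 alone 116 genes (0.638%) were 2-fold apart. On replicate 1 the stem cell surface list was higher than on the mean of the others by a median of 0.36 on the log2 scale, with 9 of 13 genes above both, and the megakaryocyte list by 0.33, with 9 of 14. For all genes the median was 0.05, with 46.6% above both and 31.9% below both. Both lists hold Itga2b, so they are not separate sets. Lists that are not of a lineage also shifted. JAK-STAT genes were above both in 17 of 23 and below both in 3. Serine, one-carbon and nucleotide genes were above both in 16 of 24 and below both in 5. The late neutrophil list went the other way, with a median of -0.35 and 11 of 13 genes below both. The primary granule list had 10 of 13 below both (median -0.14), the monocyte list 12 of 19 (median -0.31) and the NADPH oxidase list 6 of 6 (median -0.22). The stem cell transcription factor list did not share the shift of the surface list, with a median of 0.11, 51.3% above both and 41% below both.

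**Figure D5:**
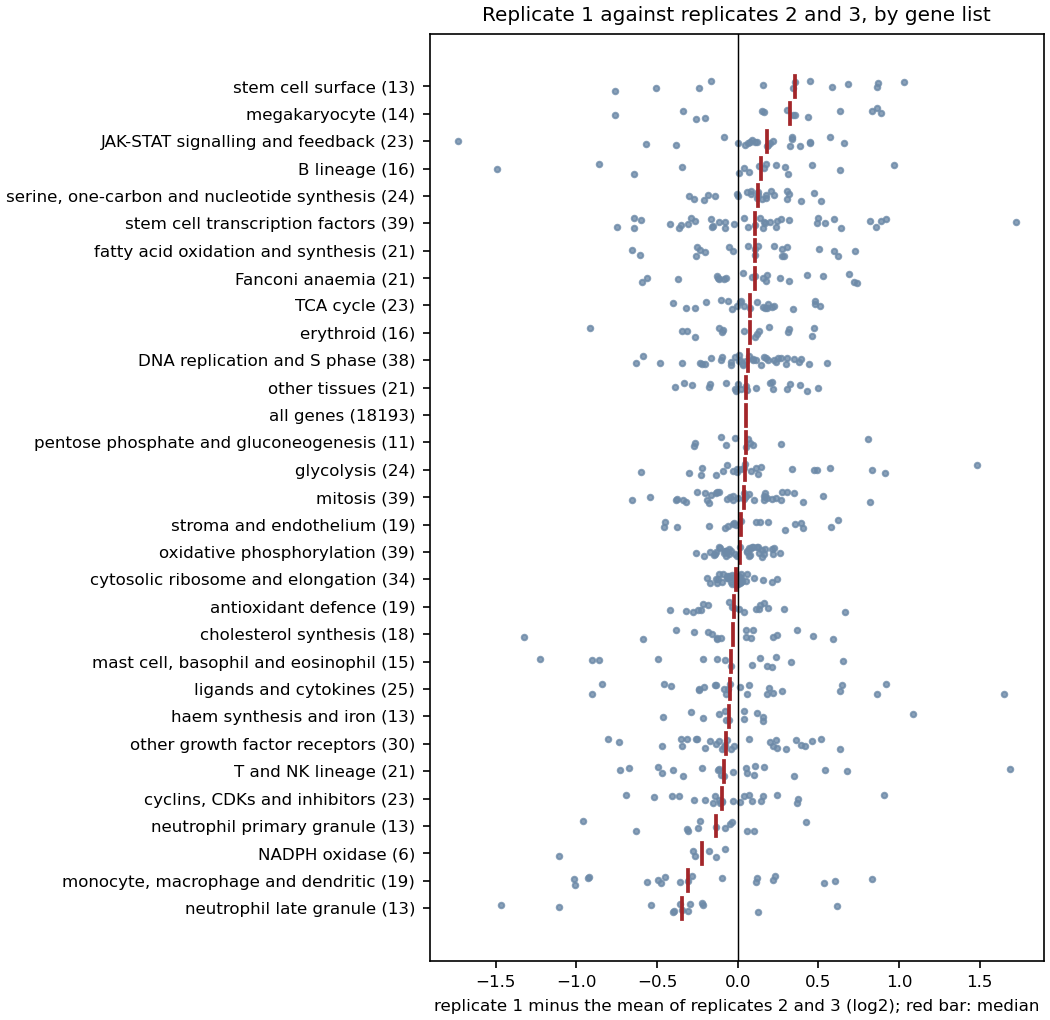
Log2 level on replicate 1 minus the mean of replicates 2 and 3 for each gene (points) and its median (red bar) in the lists with at least 5 measured genes, and the median over all genes. The stem cell surface and megakaryocyte medians lie farthest right, at 0.36 and 0.33, and the late neutrophil and monocyte medians farthest left, at -0.35 and -0.31.

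The genes with the largest range between arrays, among those above the floor on at least 1 of them, were led by Xist. Samd9l, an interferon-induced growth regulator, read 6.57, 3.46 and 7.90, low on replicate 2. Dcstamp, a fusion protein of osteoclasts and dendritic cells, read 6.62, 3.88 and 3.43, and Pdk4, which restrains pyruvate dehydrogenase, 8.22, 5.69 and 6.67. Mt2, a metallothionein induced by metals and stress, was the brightest of them at 11.72, 9.29 and 9.83. All 3 were highest on replicate 1, as were Rpl39l, Adamtsl2, Syce1, Ldhd, Pik3r3, B3galnt1 and Mapk12. Ptgr1, a prostaglandin reductase, was lower there at 7.54 against 9.73 and 9.87, as was Arhgef11 at 5.79 against 7.91 and 8.02. Pgr, the progesterone receptor, was low on replicate 2 at 6.09, 4.28 and 6.86. Apart from Xist on replicate 3, none of the 15 passed the bright threshold on any array.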

How the data were processed

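Levels of mRNA were read on Affymetrix MOE430 2.0 arrays. The authors deposited log2 values for each probe set, computed with RMA (robust multi-array average, which corrects background and equalises array distributions), per the submitters' processing notes, with a version not given in the sources used here. From the range of the values, 2.14 to 14.94, the base was taken as log2. The platform annotation names 1 gene for 34945 of 45101 probe sets, several for 932 and none for 9160, and 64 controls were left out. Of the genes, 18031 were found in the RefSeq table and no symbol changed.

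The 32 gene lists hold 714 genes, 634 of them measured and 23 on several lists. The members and lists were chosen with earlier results of these data known. Genes were named by a rule: the 25 brightest, up to 4 bright and the 3 dimmest of a list, the markers Kit, Cd34 and Flt3, the 15 of largest range (each with an array above the floor) and Fancc, without predicted genes. Other members named were chosen after their values were seen. Alternatives were another gene representation, other thresholds, each array past its own threshold, centring and leaving out each array. Promoters were the first RefSeq window listed, and 2647 genes had several. Work was done in Python 3.11.15 with numpy 2.4.6, pandas 2.3.3 and matplotlib 3.10.9. The other 9 arrays were not used.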

Additional observations from a re-analysis of the deposited data

How the results depend on the processing

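Over all lists 208 members were bright and 65 near the floor. With genes of 1 probe set only, 100 were bright, since fewer genes were measured, and other settings gave 148 to 309. With the floor at the median of the receptor genes, 17 members and 1566 of all genes were near it (5447 as reported). With the floor set from genes of other tissues, chosen after the data were seen, these were 95 and 6711. Leaving out each array gave 207 to 209 bright members, 64 to 68 near the floor and 5318 to 5568 genes near the floor. The 704 genes at least 2-fold apart were 437 with probe sets averaged, 676 after centring and between 116 and 450 when an array was left out, the lowest without replicate 1. The median CpG count of bright genes' promoters was 22 with the mean of probe sets and with genes of 1 probe set, and that of near-floor genes was 7 and 5. Of 544 counts over single lists under these settings, 452 were within 1.5 times of the reported count and 92 were not. No paired analysis was possible because 1 group was described and no test was made.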

Other observations

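Gene families outside the lists were taken by gene symbol after the data were seen, and are given as values. Many genes of housekeeping complexes were bright, beside 10% of all genes. They were 8 of 8 CCT chaperonin subunits, 29 of 39 proteasome subunits and 36 of 73 mitochondrial ribosomal proteins. Of 47 genes with translation initiation factor (Eif) symbols 29 were bright. The Eif search was not limited to the factors themselves, and the CCT search did not include Cct6b. Psmb11, the proteasome subunit of thymic epithelium, was the proteasome gene near the floor, at 3.49, 3.43 and 3.44. Splicing genes were similar, with 7 of 9 snRNP proteins and 5 of 10 serine-arginine factors bright.

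Families of epithelium and neurons were mostly near the floor. All 15 GABA receptor subunits were, as were 26 of 44 keratins, 28 of 42 collagens and 47 of 80 potassium channel genes, beside 29.9% of all genes. Kcnn4, a calcium-activated potassium channel of blood cells, was the bright channel gene at 13.09, 12.77 and 12.94. Of 23 genes with glutamate receptor symbols, which include Grina and the Grm genes and so not only receptor subunits, 12 were near the floor. The highest was Gria3, at 10.86, 10.85 and 10.89. Krt18, a keratin of simple epithelia, read 10.03, 9.72 and 9.92.

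No Hox gene of the 4 clusters was bright. HoxA genes had a median log2 level of 8.30, HoxB of 5.15, HoxC of 4.14 and HoxD of 4.06, with 3 of 9, 3 of 9, 5 of 7 and 5 of 8 near the floor. The HoxA and HoxB shares near the floor are close to the 29.9% of all genes, and the medians rest on different probe sets.

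Of 1354 long noncoding RNA genes, 1.11% were bright and 64.5% near the floor, and of 16465 protein-coding genes 10.9% and 26.5%. On the X chromosome 8.75% of 617 genes were bright and 38.9% near the floor.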
